A study of Mus musculus with 4 samples.

Results

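Transcripts of the nuclear pore complex and of the factors that carry cargo through it were followed in sorted meiotic cells from control testes and from testes labelled as lacking the zinc-finger protein ZFP541. A rule on gene symbols took nucleoporins (Nup genes, *Ndc1*, *Pom121* and its relatives, *Tpr* and *Aaas*), importins and transportins (Kpna, Kpnb, Ipo and Tnpo genes), exportins (Xpo genes) and the Ran cycle (*Ran*, *Rangap1*, *Rcc1* and Ranbp genes). It found 64 of the 24411 genes listed, and 62 of them had a role in the pore or in transport. The remaining members, *Nupr1* and *Nupr1l*, share the first letters only. *Nupr1* encodes a small stress-induced chromatin protein.

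Cells with GFP were sorted from testes of mice aged 18 days (P18). All mice carried the *Rec8-3FH-GFP* KI allele, which tags REC8, a cohesin subunit of meiotic prophase, and makes GFP from the same transcript. The comparison asks how transcript levels in these cells differ between the genotypes. Controls were 2 libraries from *Zfp541*+/- testes, which carry 1 intact allele, and the others were 2 libraries labelled *Zfp541* KO, in which CRISPR/Cas9 deleted a stretch of exons beginning at the first exon on both alleles. Each library came from 1 testis, so p-values measure the spread between single testes. One control testis was hetero and the other homo for the KI allele, and the labels do not say which is control 1. Both KO testes were homo for it. The labels give a mixed C57BL/6 and CBA strain, whereas the study's methods give C57BL/6.

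The nuclear pore complex is a ring-shaped channel in the nuclear envelope, built from scaffold rings, membrane anchors, disordered proteins that line the channel, a basket on the nuclear side and filaments on the cytoplasmic side. Importins bind cargo in the cytoplasm and release it in the nucleus on binding Ran-GTP, and exportins bind cargo together with Ran-GTP in the nucleus and release it outside, where GTP is hydrolysed. Germ cells also use testis-enriched relatives of several of these proteins.

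Levels are given as TPM, a relative transcript abundance that the authors estimated with correction for transcript length, so that genes can be compared within a library. Every library has the same total TPM, which hides its depth, and the counting error is unknown. Differences are the mean log2(TPM + 1) of the KO libraries minus that of the controls, fitted with limma over the 14512 genes averaging 1 TPM or more, with Benjamini-Hochberg adjustment over all of them. A pseudocount of 1 understates the difference of genes with low TPM. All 64 members were among the genes tested.

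*Zfp541* itself was at 112 TPM in control 1, 72.2 TPM in control 2, 136 TPM in KO 1 and 151 TPM in KO 2, so the transcript of the targeted gene was not lower in the libraries labelled *Zfp541* KO, and every direction below follows the labels alone. The controls stood apart from each other, and for Leydig cell markers each also stood apart from the KO libraries. The summed level of 5 Leydig cell markers was 2873 TPM in control 1, 18.0 TPM in control 2, 324 TPM in KO 1 and 491 TPM in KO 2. That of 4 macrophage markers was 1568 TPM in control 1, 15.3 TPM in control 2, 1286 TPM in KO 1 and 924 TPM in KO 2. Meiotic prophase markers summed to 4287 and 6932 TPM in the controls and to 8445 and 8551 TPM in the KO libraries. Of these 9 markers 6 were higher without overlap, among them *Sycp1* and *Sycp3*, where 38.6% of all genes tested were. None was at 0. Markers of pachytene and later stages summed to 4729 and 2100 TPM in the controls and to 1014 and 1610 TPM in the KO libraries. Of these 5 markers 3 were lower without overlap (*Adam3*, *Ldhc* and *Pgk2*), where 12.1% of all genes tested were. None was at 0. *Rec8*, the gene that carries the tag, was at 7.05 TPM in control 1 and between 19.4 and 27.9 TPM elsewhere. Markers of spermatogonia summed to 117 to 175 TPM, of Sertoli cells to 114 to 221 TPM and of round spermatids to 13.9 to 28.7 TPM, the last with 1 to 5 of 6 at 0. In these lists 2 of 6, 2 of 5 and 2 of 6 were higher without overlap and none lower. Red blood cell markers summed to 275 TPM in KO 2 and to 18.8 to 69.5 TPM elsewhere. The part of these shifts in the values below was not tested. In such sorted bulk samples, fewer cells of a stage and less RNA per cell cannot be told apart.

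To show where the members with the largest differences start, the 150 bases before the RefSeq transcription start (GRCm38.p6) are given for 4 of the 5 members with an entry that were at least 2-fold higher in the KO libraries and for both that were at least 2-fold lower. The window of *Nupr1*, which has no known part in transport and whose groups overlapped, is described without its letters. *Nup210*, at chr6:91116827-91116976 on the minus strand, encodes a large membrane nucleoporin. *Tpr*, at chr1:150392688-150392837 on the plus strand, encodes the scaffold of the nuclear basket. *Xpo1*, at chr11:23255891-23256040 on the plus strand, encodes the general exportin CRM1. *Ranbp2*, at chr10:58446702-58446851 on the plus strand, encodes the main protein of the cytoplasmic filaments. *Pom121l2*, at chr13:21981031-21981180 on the plus strand, and *Pom121l12*, at chr11:14599090-14599239 on the plus strand, are relatives of the membrane nucleoporin gene *Pom121*. Each sequence runs 5′ to 3′ toward its gene, and capitals mark the letters of a CCAAT box (CCAAT), GC box (GGGCGG, read CCGCCC on the other strand) or TATA box (TATAAA).
Nup210: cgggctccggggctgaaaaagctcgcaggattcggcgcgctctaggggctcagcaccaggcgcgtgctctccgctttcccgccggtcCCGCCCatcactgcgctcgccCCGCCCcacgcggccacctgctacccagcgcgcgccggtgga
Tpr: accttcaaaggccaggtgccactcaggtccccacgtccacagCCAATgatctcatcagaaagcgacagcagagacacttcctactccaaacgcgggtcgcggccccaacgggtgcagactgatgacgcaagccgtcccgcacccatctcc
Xpo1: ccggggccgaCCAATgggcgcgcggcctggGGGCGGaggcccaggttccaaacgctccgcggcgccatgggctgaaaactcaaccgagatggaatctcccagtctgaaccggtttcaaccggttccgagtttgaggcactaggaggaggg
Ranbp2: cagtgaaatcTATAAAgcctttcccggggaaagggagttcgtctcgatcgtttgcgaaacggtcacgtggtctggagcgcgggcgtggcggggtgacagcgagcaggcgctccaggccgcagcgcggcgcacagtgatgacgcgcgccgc
Pom121l2: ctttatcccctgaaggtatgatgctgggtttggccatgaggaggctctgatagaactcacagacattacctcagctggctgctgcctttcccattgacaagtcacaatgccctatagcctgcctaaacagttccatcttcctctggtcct
Pom121l12: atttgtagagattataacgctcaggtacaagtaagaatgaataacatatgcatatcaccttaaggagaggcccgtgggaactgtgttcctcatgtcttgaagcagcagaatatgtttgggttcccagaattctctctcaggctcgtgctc

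The windows differed in their number of CpG dinucleotides. There were 21 in *Nup210* and in *Ranbp2*, 14 in *Xpo1* and 10 in *Tpr*, but 0 in *Pom121l2* and 3 in *Pom121l12* and in *Nupr1*. The median was 11 over the windows of 10924 tested genes and 14 over those of the 53 members with an entry. *Nupr1* was over 2-fold higher by mean log2(TPM + 1), but 1.51-fold higher by mean TPM. GC content was 74.0% in *Nup210*, 60.7% in *Tpr*, 65.3% in *Xpo1* and *Ranbp2*, 50.0% in *Pom121l2* and 43.3% in *Pom121l12*. A GC box lay 63 and 42 bases before the start of *Nup210* and 120 bases before that of *Xpo1*. A CCAAT box lay 108 bases before *Tpr* and 140 bases before *Xpo1*, and a TATA box 140 bases before *Ranbp2*. Neither Pom121l window held any of the motifs searched.

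Over all members, a CCAAT box was found in 19 of 53 windows (35.8%) and in 28.6% of the 10924, and a GC box in 28 of 53 (52.8%) and in 52.1%. The letters TGACGTCA (CRE) were found in 3 member windows (5.66%; 2.46% of all windows) and CCGGAAGT (ETS) in 5 (9.43%; 5.05% of all). GCATGCGC (NRF1 core) was found in 5 (9.43%; 3.74% of all) and TATAAA in 1 (1.89%; 3.29% of all). Both strands were searched, and none of these motifs contains another. Windows with at most 3 CpG belonged to 4 members, *Pom121l2*, *Pom121l12*, *Kpna7* and *Nupr1*, none of which was higher in both KO libraries than in both controls. The limit of 3 equals the number in *Pom121l12*, a window shown for its large difference. With only 4 such members, a link between CpG number and direction was not tested. Among tested genes with such windows 27.5% were higher and 15.9% lower without overlap, against 41.2% and 11.3% of those with more CpG. These letter matches describe the windows and say nothing of what binds there.

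No member passed an FDR of 0.05 in limma (0 higher, 0 lower), and neither did any other gene, a background of 0.0%. The smallest adjusted p among the members was 0.310. Without control 1, 35 members were called higher and 1 lower (38.7% and 9.47% of all genes), and without control 2, 22 and 4 (15.5% and 12.9%). In these fits the lone control is assumed to vary like the KO libraries, which were close to each other. At an unadjusted p under 0.05, 13 members (20.3%) were higher and 2 (3.13%) lower in the KO libraries, where 10.7% and 3.73% of all genes tested were. With 2 libraries against 2, an exact permutation test cannot give a p below 0.3333, and the comparisons that follow are descriptions of these 4 libraries.

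Both KO libraries were above both controls for 33 of the 64 members (51.6%), where 38.6% of all genes tested were, and below both controls for 4 members (6.25%), where 12.1% were. The median difference was 0.36 over the members and 0.28 over all genes tested. This upward shift of all genes depended on the scaling. After median-ratio scaling, which sets the typical gene equal between libraries, the medians were 0.036 and -0.0044. Then 21 members (32.8%) were higher without overlap and 14 (21.9%) lower, where 23.1% and 22.3% of all genes were. The scaling divided control 1 by 1.00, control 2 by 0.797, KO 1 by 1.14 and KO 2 by 1.10. It thus lowers both KO libraries against both controls for every gene. By this arithmetic all 21 had to be among the 33. The 4 lower members, *Pom121l2*, *Pom121l12*, *Kpna7* and *Rcc1*, likewise had to stay lower, which is no evidence of robustness. The other 10 lower members on that scale were *Ran*, *Ranbp1*, *Ranbp3*, *Ranbp17*, *Nup188*, *Nup210l*, *Nup50*, *Nupl2*, *Kpna6* and *Ipo5*.

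A difference of at least 2-fold was seen for 6 members higher (9.38%; 8.99% of all genes) and 2 lower (3.13%; 5.22% of all genes), and neither share is read as a result about the members. The 6 were *Nup210*, *Tpr*, *Xpo1*, *Ranbp2*, *Kpna3* and *Nupr1*, and the 2 were *Pom121l2* and *Pom121l12*. The members were well expressed, with a median of 57.0 TPM against 23.2 TPM over all genes tested, and ranged from a mean of 2.24 TPM (*Kpna7*) to 528 TPM (*Ran*). The KO libraries were within 1.25-fold of each other for 58 members and the controls for 21. Controls 1 and 2 were more than 2-fold apart for 13 members, and KO 1 and 2 for 2.

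**Figure D1:**
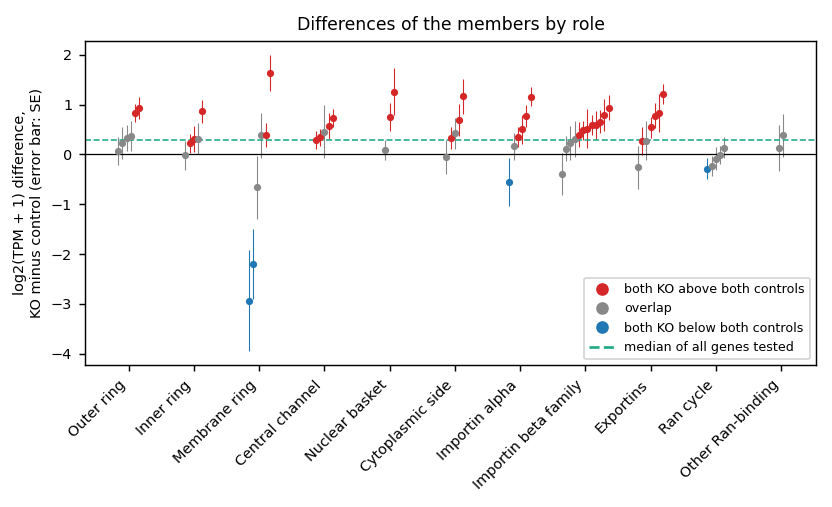
Difference in mean log2(TPM + 1), KO minus control, for each of the 62 members with a role (points, n = 2 libraries per group; bars, SE from limma), grouped by role. Red points have both KO libraries above both controls, blue points both below, and the dashed line is the median of all genes tested, 0.28. Most scaffold, importin and exportin points lie above 0, the Ran cycle lies near 0, and *Pom121l2* and *Pom121l12* lie lowest.

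The outer ring, the Y-shaped scaffold that coats both faces of the pore, had 6 members, of which 2 were higher without overlap and none lower (median 0.35). Counts by role rest on few genes and are read beside the shares of 38.6% and 12.1% over all genes. *Nup160* was at 22.4 TPM in control 1, 21.9 TPM in control 2, 43.2 TPM in KO 1 and 43.1 TPM in KO 2. Each pair was nearly equal and the pairs did not overlap, a difference of 0.93 (SE 0.22, adjusted p = 0.310, limma). *Nup107*, a stem subunit of this scaffold, was at 75.5 and 87.2 TPM in controls against 142 and 147 TPM in KO libraries, again without overlap, and its difference was 0.83 (SE 0.18, adjusted p = 0.310, limma). *Nup85* was the highest member of the ring, at 98.7 and 172 TPM in controls against 149 and 159 TPM in KO libraries, where the KO values lay between the controls. The groups also overlapped for *Nup37*, *Nup43* and *Nup133*, with differences between 0.074 and 0.37. *Nup160* and *Nup107* remained higher without overlap after median-ratio scaling (0.62 and 0.50).

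The inner ring, which ties the scaffold to the membrane and the channel proteins, had 3 of 5 members higher without overlap and none lower (median 0.31). *Nup205*, its highest member, was at 284 and 168 TPM in controls against 252 and 295 TPM in KO libraries, and the groups overlapped. *Nup155*, which contacts the membrane, was at 34.2 and 27.0 TPM in controls against 54.5 and 58.3 TPM in KO libraries. Both KO libraries were above both controls, a difference of 0.87 (SE 0.23, adjusted p = 0.315, limma). *Nup93* and *Nup188*, the other members without overlap, differed by 0.31 and 0.22, and after median-ratio scaling by -0.016 and -0.10, so their direction depended on the scaling. *Nup35* was at 18.5 and 26.2 TPM in controls against 22.0 and 21.4 TPM in KO libraries, with the KO values between the controls.

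Among members with a role, those with the largest differences in both directions were in the membrane ring. Of 6 members, 2 were higher and 2 lower without overlap (median -0.14). *Nup210*, which spans chr6:91013068-91116829 on the minus strand (GRCm38) with 40 exons in its longest coding transcript, was at 10.3 TPM in control 1, 18.4 TPM in control 2, 46.5 TPM in KO 1 and 42.9 TPM in KO 2. Both KO libraries were well above the higher control, and the mean was 3.12 times that of the controls, a difference of 1.63 (SE 0.36, adjusted p = 0.310, limma). Its relative *Nup210l*, on chromosome 3 and known for expression in germ cells, was at 59.9 TPM in control 1, 18.9 TPM in control 2, 17.1 TPM in KO 1 and 25.7 TPM in KO 2, with control 1 alone high and the groups overlapping (difference -0.66, SE 0.63, adjusted p = 0.638, limma). After median-ratio scaling, which lowers both KO libraries against both controls, *Nup210l* was lower without overlap (-0.97). The ratio of *Nup210* to *Nup210l* TPM was 0.171 and 0.977 in controls 1 and 2 and 2.72 and 1.67 in KO 1 and 2, without overlap.

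*Pom121l2*, a gene of 1 exon at chr13:21981194-21988734, was at 101 TPM in control 1, 15.5 TPM in control 2, 2.79 TPM in KO 1 and 6.62 TPM in KO 2. The libraries were in the same order for *Pom121l12*, also of 1 exon, at chr11:14599276-14600314, at 86.2 TPM in control 1, 24.6 TPM in control 2, 6.99 TPM in KO 1 and 12.3 TPM in KO 2. Both genes were highest in control 1 and lower in both KO libraries than in control 2. The differences were -2.93 (SE 1.00, adjusted p = 0.331, limma) and -2.20 (SE 0.70, adjusted p = 0.322, limma). Against control 2 alone they were -1.62 and -1.31, and against control 1 alone -4.25 and -3.08. The summed markers of pachytene and later stages, most of whose TPM came from *Ldhc*, took the same order over the libraries, as did *Adam3*, *Ldhc* and *Pgk2* each. *Piwil1* did not, with KO 2 at 364 TPM above control 2 at 244 TPM. *Hist1h1t* was low, and equal in control 2 and KO 2 at 2.44 TPM. The part of stage in these values was not tested.

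*Pom121* itself, the membrane anchor needed for pore assembly, was at 64.6 and 27.5 TPM in controls against 57.8 and 53.0 TPM in KO libraries, where control 2 was lowest and the groups overlapped (difference 0.38). The ratio of *Pom121* to *Pom121l2* TPM was 0.639 and 1.78 in controls 1 and 2 and 20.7 and 8.00 in KO 1 and 2. Reads from stretches that are alike in *Pom121* and its relatives may have been split between them by the counting. *Ndc1*, the anchor shared with the spindle pole body of yeast, was at 24.5 and 21.5 TPM in controls against 30.5 and 30.2 TPM in KO libraries, without overlap (difference 0.39, and 0.074 after median-ratio scaling, where the groups overlapped).

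**Figure D2:**
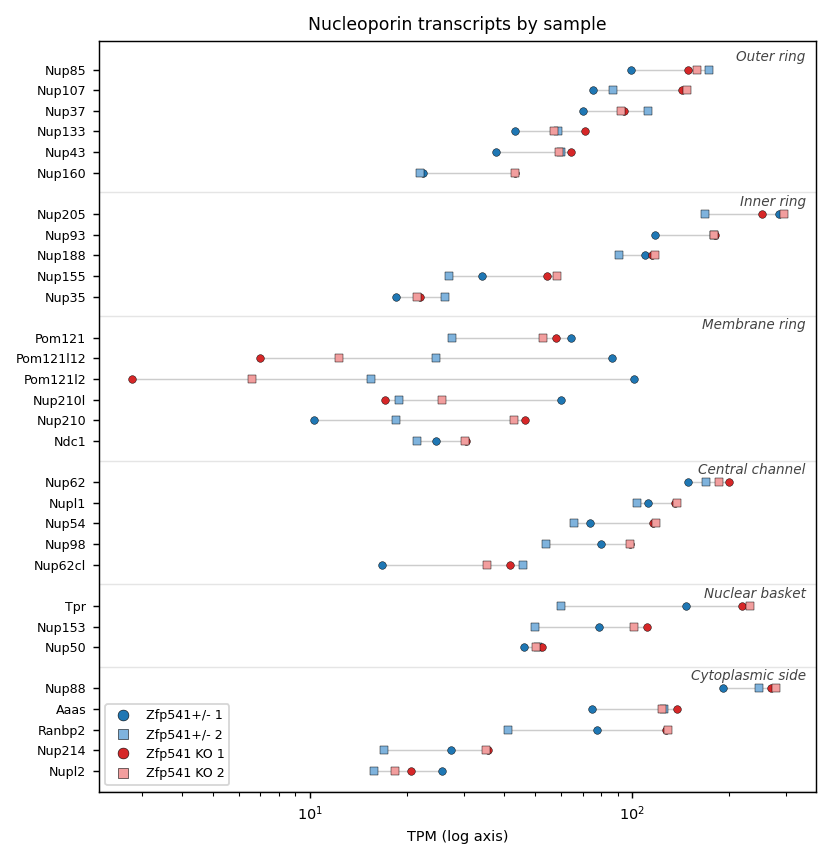
TPM of the 30 nucleoporin members in each of the 4 libraries, on a log axis, ordered by role and by mean level (circles, replicate 1; squares, replicate 2; blue, *Zfp541*+/-; red, *Zfp541* KO). Grey lines join the lowest and the highest library. The red points lie close together for most members, *Nup210* has both to the right of the blue points, and *Pom121l2* and *Pom121l12* have both to the left.

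The central channel, lined by proteins with phenylalanine-glycine repeats, had 4 of 5 members higher without overlap, beside 38.6% of all genes (median 0.45). After median-ratio scaling 2 of the 4, *Nup54* and *Nup98*, were still higher without overlap. *Nup62*, the most abundant of them, was at 149 and 169 TPM in controls against 200.0 and 186 TPM in KO libraries. The pairs did not overlap, but the difference of 0.28 equalled the median of all genes at this rounding, and it was -0.043 after median-ratio scaling. Its exons overlap those of *Il4i1* on the same strand, where shared reads cannot be told apart, and those of *Atf5* on the other strand. *Nup54*, whose protein binds NUP62 in the channel, was at 74.0 and 65.7 TPM in controls against 116 and 118 TPM in KO libraries, a difference of 0.74 (SE 0.18, adjusted p = 0.310, limma), without overlap under both scalings. *Nupl1*, the gene of NUP58 and the other partner of NUP62, differed by 0.34, and *Nup98* by 0.57. *Nup62cl*, a relative of *Nup62* and the only member on the X chromosome, was at 16.7 and 45.8 TPM in controls against 41.6 and 35.5 TPM in KO libraries, where control 1 was lowest and control 2 highest. The ratio of *Nup62* to *Nup62cl* TPM was 8.95 and 3.68 in controls 1 and 2 and 4.81 and 5.25 in KO 1 and 2, with overlap.

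The nuclear basket had 3 members. *Tpr* was at 146 TPM in control 1, 59.9 TPM in control 2, 219 TPM in KO 1 and 232 TPM in KO 2, without overlap, and its mean was 2.19 times that of the controls, a difference of 1.26 (SE 0.47, adjusted p = 0.347, limma). Control 1 was 2.45 times control 2, and the KO mean was 1.54 times control 1 and 3.77 times control 2. *Nup153*, which docks the basket and receptors, was at 78.9 and 49.7 TPM in controls against 111 and 101 TPM in KO libraries (difference 0.75), in the same order of libraries among the controls. *Nup50*, an importin alpha cofactor, was at 46.1 and 50.9 TPM in controls against 52.3 and 50.4 TPM in KO libraries, with all libraries within a narrow range. Exons of *Tpr* overlap those of *Odr4* and *Prg4* on the other strand, and the study's methods do not say whether the kit marks strand. Exons of further members overlap those of neighbours too. Examples are *Xpo7* with *Npm2* and *Nupl1* with *Atp8a2* on the same strand, and *Kpna7* with *Arpc1a* on the other. The part of shared reads in these values was not tested.

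On the cytoplasmic side, 3 of 5 members were higher without overlap (median 0.42). *Ranbp2*, which holds SUMO-modified RanGAP1 at the pore and acts as a SUMO ligase, was at 77.4 TPM in control 1, 41.1 TPM in control 2, 128 TPM in KO 1 and 129 TPM in KO 2. Both KO libraries were above control 1, itself 1.88 times control 2, and the difference was 1.17 (SE 0.35, adjusted p = 0.319, limma). *Nup88*, the highest of the group, was at 191 and 247 TPM in controls against 269 and 279 TPM in KO libraries (difference 0.33). Its partner *Nup214* was at 27.4 and 17.0 TPM in controls against 35.5 and 35.2 TPM in KO libraries, also without overlap (difference 0.69). *Aaas*, which encodes ALADIN, and *Nupl2*, the gene of NUP42, overlapped between groups, with differences of 0.42 and -0.056.

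Importin alpha proteins are the adaptors that bind classical nuclear localization signals, and 4 of the 6 genes were higher without overlap and 1 lower (median 0.43). *Kpna3* was at 71.7 TPM in control 1, 60.5 TPM in control 2, 148 TPM in KO 1 and 149 TPM in KO 2. The KO values were nearly equal and more than 2-fold above the higher control, a difference of 1.16 (SE 0.19, adjusted p = 0.310, limma), which was 0.84 after median-ratio scaling. *Kpna1* was at 34.8 and 29.2 TPM in controls against 57.2 and 52.2 TPM in KO libraries, without overlap under both scalings (difference 0.76, SE 0.22, adjusted p = 0.318, limma). *Kpna2*, the most abundant importin alpha in every library, was at 328 and 377 TPM in controls against 459 and 435 TPM in KO libraries, and its difference of 0.35 was 0.020 after median-ratio scaling. *Kpna4* was at 106 and 65.4 TPM in controls against 117 and 122 TPM in KO libraries (difference 0.51) and *Kpna6* at 48.2 and 33.2 TPM in controls against 47.1 and 42.6 TPM in KO libraries (difference 0.16). *Kpna7*, best known from oocytes and early embryos, was at 2.99 and 2.57 TPM in controls against 0.910 and 2.47 TPM in KO libraries, the lowest mean of all members, with KO 1 well below the other libraries and KO 2 just below control 2.

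Read as shares of the summed importin alpha TPM, which do not depend on scaling, *Kpna2* made up 55.4% and 66.4% in controls 1 and 2 and 55.4% and 54.2% in KO 1 and 2. *Kpna3* held the second place in the KO libraries, with 17.8% and 18.6% against 12.1% and 10.7% in the controls. These groups did not overlap. *Kpna4* took 18.0% and 11.5% in the controls and 14.1% and 15.1% in the KO libraries, with overlap. *Kpna6* took 8.13% and 5.85% against 5.68% and 5.31%, lower without overlap. *Kpna1* took 5.87% and 5.14% against 6.90% and 6.50%, higher without overlap, and *Kpna7* 0.505% and 0.453% against 0.110% and 0.308%, lower without overlap. The ratio of *Kpna3* to *Kpna2* was 0.219 and 0.161 in the controls and 0.322 and 0.343 in the KO libraries.

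**Figure D3:**
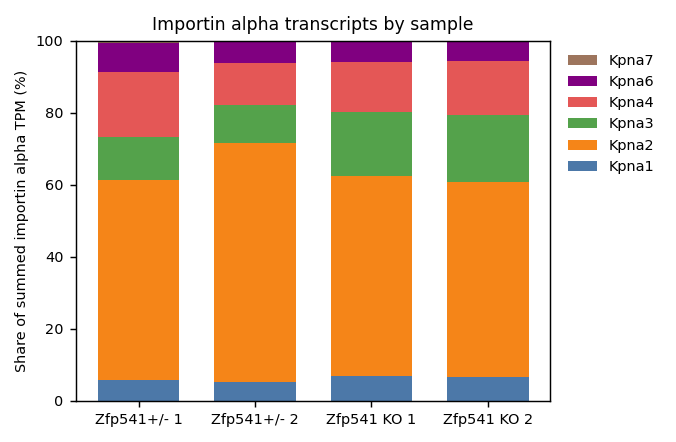
Share of each of the 6 importin alpha genes in their summed TPM (stacked bars, in percent) in each of the 4 libraries. The band of *Kpna3* is wider in both KO libraries, at 17.8% and 18.6%, than in the controls, at 12.1% and 10.7%, and the band of *Kpna2* is widest in control 2.

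The importin beta family import receptors carry cargo directly or through importin alpha, and 8 of 12 were higher without overlap and none lower, beside 38.6% and 12.1% of all genes (median 0.50). *Kpnb1*, the partner of importin alpha, was at 199.9 and 109 TPM in controls against 175 and 173 TPM in KO libraries, so the KO libraries lay between the controls (difference 0.23). *Ipo5*, the most abundant and a carrier of ribosomal proteins and histones, was at 289 and 200.1 TPM in controls against 251 and 269 TPM in KO libraries, also between the controls. Its relative *Ranbp6* was at 20.0 and 10.8 TPM in controls against 21.8 and 21.3 TPM in KO libraries (difference 0.52), with KO 1 and 2 just above control 1 and the groups overlapping after median-ratio scaling. *Ipo13*, which works in both directions, was at 71.9 and 49.5 TPM in controls against 114 and 116 TPM in KO libraries. Both KO libraries were above both controls, a difference of 0.93 (SE 0.25, adjusted p = 0.315, limma), and 0.61 after median-ratio scaling.

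*Ipo7*, *Ipo9*, *Tnpo1*, which imports RNA-binding proteins, and *Tnpo3*, which imports splicing factors rich in serine and arginine, were also higher without overlap under both scalings, with differences between 0.59 and 0.79. *Ipo11* and *Tnpo2* were higher without overlap only on the deposited scale (0.48 and 0.39). *Ipo8* overlapped between groups (0.31). *Ipo4*, a histone import receptor, was at 37.3 and 81.7 TPM in controls against 42.6 and 40.8 TPM in KO libraries, where control 2 was highest and the difference was -0.40.

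Of 7 exportins, 5 were higher without overlap and none lower, where 38.6% and 12.1% of all genes were (median 0.54). *Xpo1*, which exports proteins with leucine-rich signals and several RNAs, was at 124 TPM in control 1, 97.6 TPM in control 2, 253 TPM in KO 1 and 259 TPM in KO 2. The KO values were nearly equal and 2.31 times the mean of the controls, a difference of 1.21 (SE 0.21, adjusted p = 0.310, limma), and of 0.89 after median-ratio scaling. The ratio of *Xpo1* to *Kpnb1* TPM was 0.620 and 0.892 in controls 1 and 2 and 1.44 and 1.50 in KO 1 and 2, without overlap. *Xpo6*, the exportin of actin, was at 143 and 70.2 TPM in controls against 176 and 182 TPM in KO libraries (difference 0.83, SE 0.39, adjusted p = 0.399, limma), and control 1 lay closer to the KO libraries than to control 2. *Xpo5*, which exports microRNA precursors, and *Xpo7* were higher without overlap under both scalings (0.54 and 0.77), whereas *Xpo4*, at 0.27, was so on the deposited scale alone. *Xpot*, which exports tRNA, overlapped (0.28).

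*Ranbp17*, a relative of *Xpo7* known for its high level in testis, was at 63.5 and 29.5 TPM in controls against 32.7 and 40.0 TPM in KO libraries. Control 1 was highest and the groups overlapped (difference -0.26, SE 0.43, adjusted p = 0.801, limma). After median-ratio scaling *Ranbp17* was lower without overlap (-0.57). The ratio of *Xpo7* to *Ranbp17* TPM was 0.260 and 0.565 in controls 1 and 2 and 0.934 and 0.695 in KO 1 and 2, without overlap. How often ratios of other gene pairs separate the groups in this way was not counted, so no ratio here is read as a result.

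**Figure D4:**
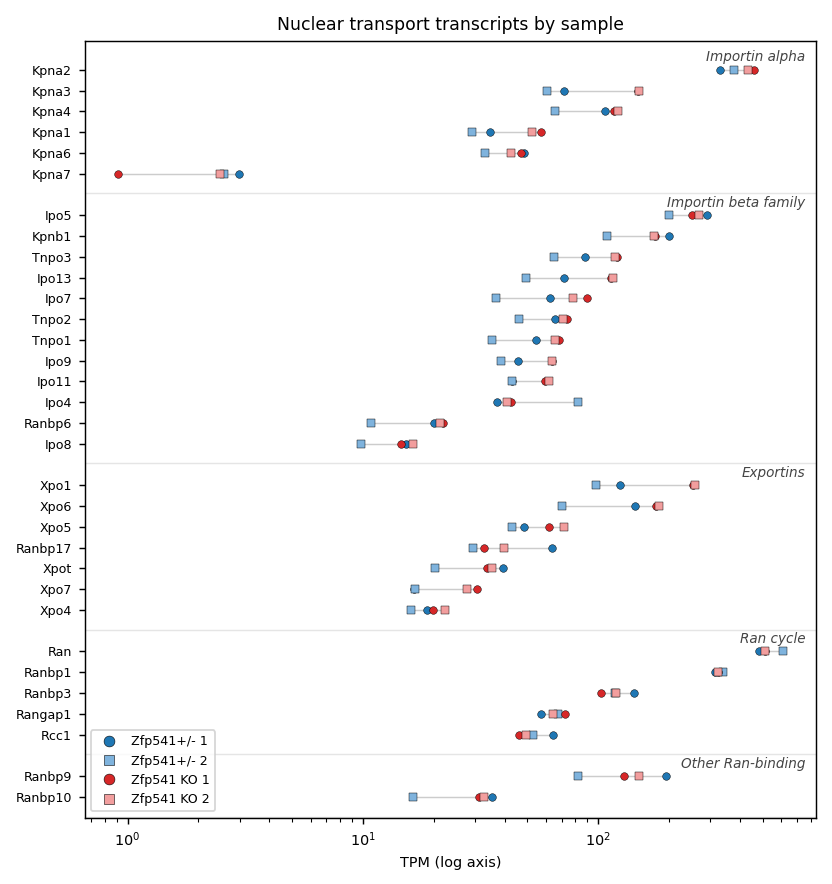
TPM of the 32 importin, exportin, Ran cycle and other Ran-binding members in each of the 4 libraries, on a log axis, ordered by role and by mean level (circles, replicate 1; squares, replicate 2; blue, *Zfp541*+/-; red, *Zfp541* KO). *Kpna3* and *Xpo1* have both red points to the right of both blue points, and the Ran cycle genes have the groups overlapping or close.

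In the Ran cycle, none of its 5 members was higher without overlap and 1 was lower (median -0.091). After median-ratio scaling *Ran*, *Ranbp1* and *Ranbp3* were lower without overlap as well, where 22.3% of all genes were. *Ran*, encoding the GTPase that gives transport its direction and the highest member, was at 483 and 611 TPM in controls against 509.9 and 509.8 TPM in KO libraries, with the KO values between the controls (difference -0.091, and -0.42 after median-ratio scaling). *Rcc1*, the exchange factor that loads Ran with GTP on chromatin, was at 64.5 and 52.6 TPM in controls against 46.2 and 49.2 TPM in KO libraries, without overlap, and its difference was -0.28 (SE 0.21, adjusted p = 0.560, limma). Its exons overlap those of *Snhg3* on the same strand, and reads from the shared part cannot be told apart. *Rangap1*, which activates GTP hydrolysis by Ran, was at 57.1 and 67.5 TPM in controls against 72.6 and 64.3 TPM in KO libraries (difference 0.14). Its cofactor *Ranbp1* was at 314 and 339.8 TPM in controls against 324 and 323 TPM in KO libraries, and *Ranbp3*, a cofactor of *Xpo1*, at 141 and 118 TPM in controls against 103 and 119 TPM in KO libraries, with differences of -0.015 and -0.23.

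Medians were 0.36 over the 30 pore members, 0.51 over the 25 receptors and -0.091 over the Ran cycle, beside 0.28 over all genes tested. After median-ratio scaling they were 0.034, 0.18 and -0.42. Whether these groups differ from each other was not tested. *Ranbp9* and *Ranbp10*, scaffolds of a ubiquitin ligase that also bind Ran, were at 194 and 81.9 TPM in controls against 128 and 149 TPM in KO libraries and at 35.5 and 16.4 TPM in controls against 31.2 and 32.6 TPM in KO libraries. Both were lowest in control 2 and overlapped between groups.

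**Figure D5:**
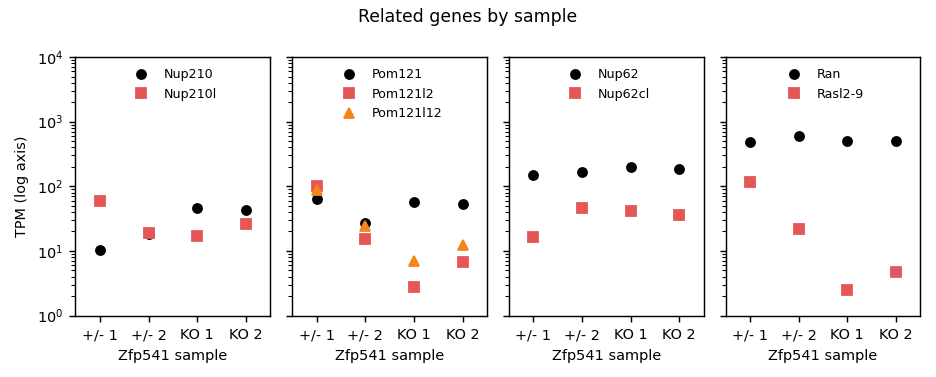
TPM on a log axis of *Nup210*, *Pom121*, *Nup62* and *Ran*, each with its relatives, in the 4 libraries (+/- 1 and 2, controls; KO 1 and 2, libraries labelled *Zfp541* KO). *Nup210* lies above *Nup210l* in both KO libraries, *Pom121l2* and *Pom121l12* lie below *Pom121* there, and *Rasl2-9*, a testis copy of *Ran*, lies at 116 TPM in control 1 and at 2.48 TPM in KO 1 while *Ran* stays between 483 and 611 TPM.

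Transcript length moved with the differences over all genes. In 4 equal groups of genes, ordered from the shortest to the longest transcript, the median difference was -0.030, 0.19, 0.36 and 0.57, and the share higher without overlap 18.6%, 32.9%, 45.6% and 57.0%. The members were long, with a median of 4564 nt against 2940 nt, and 34 of 64 lay in the longest group, where 22 (64.7%) were higher without overlap. With each library corrected for length, the median of the members was 0.29 and that of all genes 0.31. The differences of *Nup210*, *Xpo1*, *Kpna3*, *Tpr* and *Ranbp2* were then 1.31, 0.96, 1.07, 0.92 and 0.74, and those of *Pom121l2* and *Pom121l12* were -2.90 and -1.81. *Nup107* and *Nup54*, of 3114 and 2352 nt, were at 0.84 and 0.86, against 0.83 and 0.74 without correction. Of the 33 members higher without overlap, 9 were then below the median of all genes, among them *Xpo7*, from 0.77 to 0.20, *Kpna4*, from 0.51 to 0.11, and *Tnpo1*, from 0.59 to 0.21.

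Among 37 other genes of the pathway whose symbols the rule does not match, 35 averaged 1 TPM or more. None passed the FDR, and their median was 0.33. Without overlap 19 were higher (54.3%; 38.6% of all genes) and 4 lower (11.4%; 12.1% of all genes, so a share near the background). *Seh1l*, an outer ring subunit, was at 32.2 and 30.8 TPM in controls against 54.3 and 58.7 TPM in KO libraries (difference 0.82, SE 0.20, adjusted p = 0.310, limma). In the same ring *Nup160* and *Nup107* differed by 0.93 and 0.83. The groups overlapped for *Nup85*, *Nup133*, *Nup43* and *Nup37* of that ring (0.23, 0.33, 0.37 and 0.074). They also overlapped for *Sec13*, another pore gene of this list (-0.16). *Thoc2* and *Thoc1*, subunits of the THO complex that couples transcription with mRNA export, differed by 0.78 and 0.71. Lower in both KO libraries were *Rangrf*, a Ran-binding cofactor of transport, at 534 and 699 TPM in controls against 331 and 393 TPM in KO libraries (difference -0.76, SE 0.25, adjusted p = 0.324, limma), *Nxt1*, a subunit of the mRNA exporter, at 236 and 258 TPM in controls against 172 and 180.2 TPM in KO libraries (difference -0.49), and *Thoc6*, another THO subunit (-0.57). The fourth lower gene was *Thoc5* (-0.17).

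Control 1 was above control 2 for 43 of the 64 members, and both KO libraries were above control 1 for 46 (71.9%; 52.9% of all genes) and above control 2 for 45 (70.3%; 65.8% of all genes, a share near that of the members). Without control 1, the median difference of the members was 0.54 and that of all genes 0.44, and without control 2 they were 0.29 and 0.15. *Nupr1* was at 34.0 and 1.20 TPM in controls against 30.6 and 22.7 TPM in KO libraries, low in control 2 alone, the library in which the macrophage markers were also lowest, and *Nupr1l* was at 5.65 and 12.1 TPM in controls against 8.71 and 7.43 TPM in KO libraries.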

How the data were processed

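GFP-positive cells of 2 *Zfp541*+/- and 2 *Zfp541* KO testes were compared. Per the labels and the study's methods, single-end reads from an mRNA kit were trimmed (Trim Galore 0.5.0, cutadapt 1.16), aligned to UCSC mm10 (STAR 2.6.0a) and quantified (RSEM 1.3.1). Those methods do not say whether the kit marks strand. The authors deposited 1 TPM table per library, from which the sequencing depth cannot be recovered. The differential analysis with RSEM on TPM that the study's methods name was not repeated.

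TPM values were joined by symbol and fitted by genotype as log2(TPM + 1), for genes averaging 1 TPM or more. The fit used limma 3.58.1 in R 4.3.3 (mean-variance trend, Benjamini-Hochberg adjustment, FDR 0.05). The procedure was run on simulated data with independent noise. That check required recovery only for changes larger than any seen in a member, so it cannot show whether smaller ones are found. Members and lists were chosen with earlier results of these data known. Named were, in each role, the most abundant member and that with the largest difference, the 12 largest differences without overlap, a fixed list of importin alpha, Ran and paralogous genes, and 3 other pathway genes in each direction. Other members were named, after their values were seen, to account for all. Of the symbols, 27 were dates and received no gene name. Lengths, exons and positions came from GENCODE (GRCm38), which held all 64 members, with lengths for 95.9% of genes tested. Promoters came from RefSeq (GRCm38.p6), which held 53. Alternatives covered pseudocount, filter, scaling, variance trend, FDR, replicate block and each library left out. A crossed block and a length correction (loess, span 0.5), alone and with the block, were added after seeing the data. No protein sequence was used here.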

Additional observations from a re-analysis of the deposited data

How the results depend on the processing

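No member was called by limma under either pseudocount, without the filter, without the trend, at an FDR of 0.1, after either scaling, or with either *Zfp541* KO library left out. Without the filter 1 gene was higher and 1 lower over all genes. With each library left out in turn, genes called higher ranged from 0 to 5610 and lower from 0 to 1875, and members from 0 to 35 and from 0 to 4. All calls came without control 1 (35 members higher, 1 lower) or control 2 (22 and 4), where the lone control is assumed to vary like the KO libraries. Members without overlap then ranged from 35 to 46 higher (54.7% to 71.9%; 42.9% to 65.8% of all genes) and from 4 to 16 lower (6.25% to 25.0%; 15.6% to 36.0%), those at least 2-fold higher from 4 to 12 and lower from 2 to 3, and their median from 0.29 to 0.54. Median-ratio scaling left 21 higher and 14 lower without overlap, 2 at least 2-fold higher and a median of 0.036, quantile normalization left 31 higher and 8 lower without overlap (48.4% and 12.5%; 27.8% and 19.4% of all genes), and length correction left 3 at least 2-fold higher.

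Over genes, deviations from the group means of samples that share a number correlated at -0.16. This single value cannot show whether samples with the same replicate number shared a litter, day or batch. With the replicate block, alone or with length correction, 0 genes were higher and 0 lower. With the numbers crossed as the block, a setting added like the length correction after seeing the data, 7 genes were higher and 80 lower, none a member.

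Of 40 named genes, 14 changed sign in 31 of 440 values, and 48 values passed the FDR, all without control 1 or control 2. After median-ratio scaling the differences were -0.043 for *Nup62*, -0.21 for *Ipo5*, -0.0061 for *Nup205*, -0.19 for *Ranbp9*, -0.090 for *Nup85*, -0.16 for *Kpna6*, -0.091 for *Kpnb1* and -0.19 for *Rangap1*. Quantile normalization gave 0.073 for *Ran*, -0.12 for *Kpna6* and -0.055 for *Rangap1*. Length correction, with or without the block, gave -0.019 for *Ipo5*, 0.016 for *Ran*, -0.070 for *Kpna6* and -0.011 for *Kpnb1*. With libraries left out in turn the ranges were -0.17 to 0.63 for *Nup85*, -0.80 to 0.29 for *Ranbp17*, -1.47 to 0.15 for *Nup210l*, -0.25 to 1.16 for *Nup62cl*, -0.15 to 0.38 for *Ipo5*, -0.060 to 0.70 for *Nup205*, -0.22 to 0.98 for *Pom121*, -0.49 to 0.75 for *Ranbp9*, -0.15 to 0.92 for *Ranbp10*, -0.26 to 0.078 for *Ran*, -0.10 to 0.42 for *Kpna6* and -0.20 to 0.67 for *Kpnb1*. The cause of these changes was not tested. Sequencing depth is unknown, so counting error could not be separated from the spread between testes.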

Other observations

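Among related genes, *Rasl2-9*, a testis-specific copy of *Ran* that was singled out after its values were seen, was at 116 TPM in control 1, 22.2 TPM in control 2, 2.48 TPM in KO 1 and 4.78 TPM in KO 2. It was highest in control 1 and lower in both KO libraries than in control 2, a difference of -3.54 (SE 0.89, adjusted p = 0.310, limma), whereas *Ran* differed by -0.091. Its library order was that of *Pom121l2* and *Pom121l12*. Because *Ran* and *Rasl2-9* are alike in sequence, the counting may have split reads between them.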
